A study of Mus musculus with 16 samples.

Results

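Hepatokines are proteins that the liver releases into the blood to act on other organs. The 9 genes described here are Fgf21, Gdf15, Inhbe, Inhba, Igfbp2, Lect2, Angptl6, Ahsg and Fetub, chosen by name as known hepatokine genes and matched to the deposited tables by Ensembl identifier. All 9 were among the 78317 genes listed, and all 9 were among the 14781 that passed the filter on low counts. RNA was measured in whole liver of wild-type C57BL/6J mice, an inbred strain, with 4 libraries in each of 4 groups. Females and males on the normal diet received LabDiet 5053 chow, described in the sample labels as having 4.5% of calories from fat. Females and males on the high fat diet received Research Diets D12492, with 60% of calories from fat. The mice arrived when 6 weeks old and then ate either diet for 10 weeks, and the study asked how the high fat diet acts on the liver in each sex. The diets come from different makers and can differ in more than fat, and the hour of tissue collection is not given in the sources used here.

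FGF21 is a hormone of the fibroblast growth factor family that signals through FGF receptors together with the co-receptor beta-klotho. It is induced in liver by fasting, by the fatty acid sensor PPAR alpha and by the stress factor ATF4. GDF15, a stress-induced member of the TGF beta superfamily, reduces appetite through the receptor GFRAL in the hindbrain. The activin subunits encoded by Inhbe and Inhba belong to the same superfamily. Inhbe is made mainly by hepatocytes, whereas Inhba is made in many tissues. Igfbp2 encodes a binding protein of the insulin-like growth factors. Lect2 encodes a secreted chemotactic factor that can bind the receptor MET, and Angptl6 an angiopoietin-like protein. Ahsg and Fetub encode fetuin-A and fetuin-B, abundant plasma proteins of the cystatin superfamily, and fetuin-A can inhibit the insulin receptor.

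The starts of 3 genes that had higher mean RNA on the high fat diet, Fgf21, Inhbe and Gdf15, are shown with those of Igfbp2 and Lect2, the member that fell and a member that rose in males without a motif match. Each sequence is the 250 bases before a RefSeq transcription start (build GRCm38.p6), 5′ to 3′ on the gene's strand, and capitals mark motif matches. The GRCm38.p6 positions are chr7:45615491-45615740 (minus strand) for Fgf21, chr10:127351849-127352098 (minus) for Inhbe, chr8:70632457-70632706 (minus) and chr8:70632096-70632345 (minus) for the first and the second start of Gdf15, chr1:72824230-72824479 (plus) for the first start of Igfbp2 and chr13:56548539-56548788 (minus) for Lect2.
Fgf21: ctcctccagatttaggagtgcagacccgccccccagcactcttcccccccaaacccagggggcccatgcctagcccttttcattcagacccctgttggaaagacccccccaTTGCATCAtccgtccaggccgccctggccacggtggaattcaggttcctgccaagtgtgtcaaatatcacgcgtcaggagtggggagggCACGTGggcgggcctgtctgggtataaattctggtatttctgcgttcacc
Inhbe: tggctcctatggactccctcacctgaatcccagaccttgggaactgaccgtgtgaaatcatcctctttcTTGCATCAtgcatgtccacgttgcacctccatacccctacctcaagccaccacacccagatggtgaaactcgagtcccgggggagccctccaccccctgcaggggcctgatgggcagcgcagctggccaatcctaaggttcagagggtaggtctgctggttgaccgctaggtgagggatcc
Gdf15 first start: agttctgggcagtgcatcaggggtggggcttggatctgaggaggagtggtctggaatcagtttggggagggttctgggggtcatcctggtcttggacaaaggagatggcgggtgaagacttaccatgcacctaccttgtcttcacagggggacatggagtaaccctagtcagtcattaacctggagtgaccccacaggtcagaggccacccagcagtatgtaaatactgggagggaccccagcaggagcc
Gdf15 second start: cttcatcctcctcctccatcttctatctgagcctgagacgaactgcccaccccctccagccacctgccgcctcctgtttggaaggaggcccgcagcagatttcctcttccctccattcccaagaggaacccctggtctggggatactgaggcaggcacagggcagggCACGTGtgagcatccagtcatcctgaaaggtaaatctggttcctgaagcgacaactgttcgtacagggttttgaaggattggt
Igfbp2: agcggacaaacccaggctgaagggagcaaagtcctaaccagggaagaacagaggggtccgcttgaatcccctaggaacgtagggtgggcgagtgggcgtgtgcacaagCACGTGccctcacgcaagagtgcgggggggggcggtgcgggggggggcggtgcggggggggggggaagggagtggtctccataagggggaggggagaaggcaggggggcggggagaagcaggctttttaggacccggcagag
Lect2: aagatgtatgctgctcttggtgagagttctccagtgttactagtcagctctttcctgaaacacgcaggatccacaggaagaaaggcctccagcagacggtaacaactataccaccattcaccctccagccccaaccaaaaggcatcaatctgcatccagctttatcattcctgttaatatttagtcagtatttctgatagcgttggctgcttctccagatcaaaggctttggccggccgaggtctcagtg

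The motifs searched on both strands were TGATGNAA (the CARE core bound by ATF4 with its partners), CACGTG (the E-box), TTCNNNGAA (the site of STAT proteins) and the DR1 element, a direct repeat bound by PPAR alpha among others. Fgf21 and Inhbe both held the same 8 letters, TTGCATCA, the reverse complement of a CARE core. The match began 139 bases before the start of Fgf21 and 181 bases before that of Inhbe. Such a match is present in 3.45% of the 32851 RefSeq start windows of the same length. The E-box, found in 6.02% of windows, matched once in Fgf21, once at the second start of Gdf15 and once in Igfbp2. The STAT motif (7.02% of windows) and the DR1 element (0.0335%) had no match in the 12 windows of the 9 genes. These are matches of letters only.

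Each library held between 22228115 and 41420589 expected counts in total. Male high fat diet replicates 2 and 3 differed by a chi-square of 4 per gene over 12871 genes, where sampling noise gives about 1, and the second closest pair of the group by 54.4. These replicates also had the highest sums of pancreatic acinar markers, 23.2 and 21.5 CPM, where the other libraries had at most 4.47. They were treated as 2 libraries, as labelled, and every comparison was repeated with their mean as 1 library. The tissue label was checked with hepatocyte markers. The 7 hepatocyte genes found, of 8 listed, together had 57535 to 113935 CPM (counts-per-million of the unscaled library total). In males their sum was 83426 to 92499 CPM on chow and 57535 to 79509 CPM on the high fat diet, so the diets did not overlap. In females it ranged from 104061 to 113935 and from 91734 to 110593. The 7 Kupffer cell and macrophage markers, all detected, summed to 236.8 to 347.4 CPM in females on the normal diet and 438.4 to 648.9 on the high fat diet, again with no overlap. The diets overlapped in males for this list, 214.4 to 305.6 against 200.1 to 402.8. In whole liver, fewer cells of a type and less RNA per cell cannot be told apart.

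The 9 genes spanned a wide range of abundance. Levels are compared between genes as TPM (transcripts-per-million), which accounts for transcript length. Ahsg alone held between 81.5% and 86.1% of the summed TPM of the 9 genes in a library. In females on the normal diet it had 6450 ± 678.3 TPM (SD, n = 4), followed by Fetub with 513.1 ± 27.5 TPM, Igfbp2 with 328.1 ± 35.2 TPM and Lect2 with 303 ± 34.5 TPM. The other 5 genes were much scarcer: Inhbe had 9.35 ± 2.16 TPM, Angptl6 5.25 ± 0.4, Fgf21 2.5 ± 1.49, Inhba 1.36 ± 0.137 and Gdf15 0.767 ± 0.321 TPM. By group means, Ahsg, Fetub and Inhbe kept the first, the second and the fifth place in all 4 groups. Igfbp2 stood above Lect2 on the normal diet in both sexes and below it on the high fat diet. The low level of Fgf21 and Gdf15 limits their precision, since their expected counts ranged from 8 to 257 and from 15 to 88 per library.

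**Figure D1:**
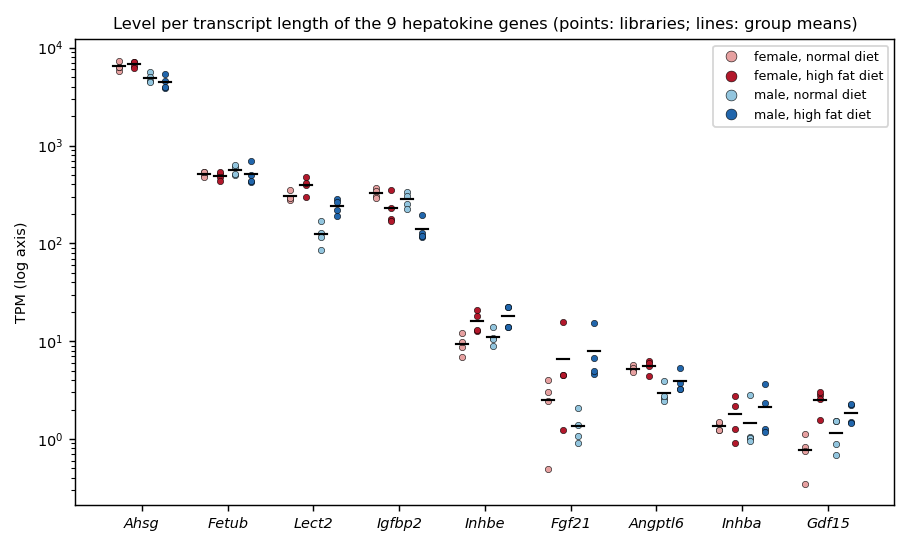
TPM of the 9 genes on a log axis; each point is 1 library, coloured by group, and lines are group means (n = 4). Ahsg lies above the other genes in all 16 libraries, and Gdf15 has the lowest mean in 3 of the 4 groups, from 0.767 to 1.87 TPM.

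The effect of the high fat diet was first examined in the stress hormones Fgf21 and Gdf15. Values below are CPM of TMM-scaled library sizes (trimmed mean of M values), tested with edgeR's quasi-likelihood test, and a gene was called at a Benjamini-Hochberg adjusted p under 0.05 over all tested genes. In males on the normal diet Fgf21 had 0.865, 0.599, 0.518 and 1.19 CPM in replicates 1 to 4, and on the high fat diet 8.44, 2.55, 2.78 and 3.67 CPM. The groups did not overlap, and replicate 1 was the highest. Fgf21 rose in males with a log2 fold change of 2.43 ± 0.7 (SE; adjusted p = 0.0377), about 5.4-fold. This call was narrow, since only 1 of the 8 fits that left out a library kept it. Without male high fat diet replicates 1, 3 and 4 in turn, the log2 fold change was 1.88, 2.6 and 2.5, and the adjusted p 0.0917, 0.0516 and 0.0642. Without male normal diet replicates 1 to 4 the adjusted p was 0.0848, 0.0965, 0.0983 and 0.0627. With replicates 2 and 3 averaged it was 0.05 after rounding, just above the threshold, with a log2 fold change of 2.61.

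In females Fgf21 had 0.297, 1.5, 2.12 and 1.72 CPM on the normal diet and 7.76, 2.22, 2.28 and 0.589 CPM on the high fat diet. The groups overlapped, and the high fat diet group ranged from below to far above the normal diet group. Its log2 fold change was 1.19, with a 95% confidence interval from -0.23 to 2.61 (adjusted p = 0.263). Its size rested on high fat diet replicate 1, without which it was 0.26 (adjusted p = 0.819). Group means ordered as males on the high fat diet (4.36 ± 2.76 CPM; SD, n = 4), females on the high fat diet (3.21 ± 3.13), females on the normal diet (1.41 ± 0.786) and males on the normal diet (0.793 ± 0.304). Each neighbouring pair in that order overlapped.

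Gdf15 was the member that rose in females. Its 4 normal diet libraries had 0.964, 1.32, 0.768 and 0.38 CPM and its high fat diet libraries 2.66, 2.84, 2.36 and 1.41 CPM, with no overlap. The log2 fold change was 1.45 ± 0.34 (SE; adjusted p = 0.0118), about 2.72-fold, and Gdf15 stayed called in all 16 alternative fits of that contrast. The Kupffer cell and macrophage sum given above separated the same groups, with 2 of its 7 genes called higher and none at 0. So did the stellate cell and fibroblast sum (369 to 378.9 against 414.8 to 452.2 CPM, 2 of 7 called higher). The sinusoidal endothelial sum did too (146.8 to 171.9 against 173 to 213.2 CPM, 0 of 6 called). The scarce T and B cell and neutrophil sums (at most 7.45 CPM) also did, with 0 and 1 genes called. These sums are of the unscaled library total, unlike the CPM of Gdf15. The TMM factors were 0.941 to 0.992 on the normal diet and 1.05 to 1.13 on the high fat diet. Divided by these factors, the stellate, endothelial and T and B cell sums overlap between the diets. The Kupffer cell and macrophage sum and the neutrophil sum still do not. The part of these cells in the rise of Gdf15 was not tested. In males Gdf15 had 1.07, 1.48, 1.64 and 0.758 CPM on the normal diet and 2.38, 1.53, 1.51 and 2.3 CPM on the high fat diet. Here high fat diet replicates 2 and 3 lay inside the normal diet range and replicates 1 and 4 above it. On the log2 scale the change in males was 0.64, with an interval from -0.07 to 1.35 (adjusted p = 0.229).

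**Figure D2:**
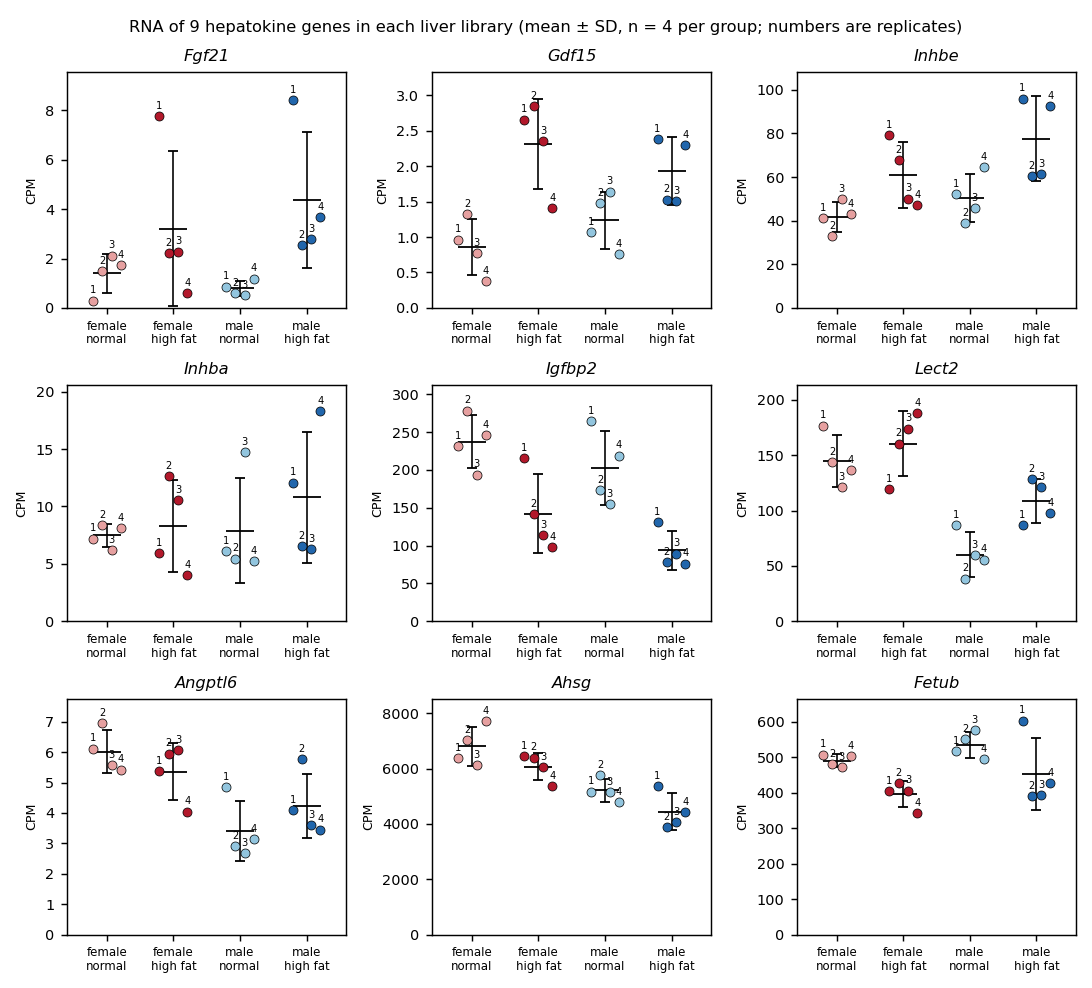
CPM of each of the 9 genes in each of the 16 libraries, with the replicate number beside each point and group means ± SD (n = 4). Fgf21 and Igfbp2 in males and Gdf15 in females show no overlap between the diets, and Fgf21 is highest in replicate 1 of both high fat diet groups, at 7.76 and 8.44 CPM.

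Of the activin subunits, Inhbe had higher means on the high fat diet in both sexes. In females it had 41.2, 32.8, 49.9 and 43.1 CPM on the normal diet and 79.1, 67.9, 50.1 and 47.2 CPM on the high fat diet. In males it had 52.3, 38.9, 45.6 and 64.6 CPM on the normal diet and 96, 60.5, 61.2 and 92.6 CPM on the high fat diet. In females 3 of 4 high fat diet libraries lay above the whole normal diet group, and in males replicates 1 and 4 did so. The log2 fold changes were 0.55 in females (interval 0.12 to 0.98, adjusted p = 0.0881) and 0.62 in males (interval 0.19 to 1.05, adjusted p = 0.0566). Neither passed the threshold in the main test. In males Inhbe passed it in 6 of 16 alternative fits, among them the one with replicates 2 and 3 averaged (log2 fold change 0.72, adjusted p = 0.0471). In females it passed by limma on both TPM scales, with adjusted p of 0.022 and 0.0224. All tested genes had a median change in females of 0.15 and 0.22 on those scales, against 0.0019 by TMM.

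Inhba varied more within groups than between them. In females its libraries spanned 6.18 to 8.4 CPM on the normal diet and 4 to 12.6 CPM on the high fat diet. The male libraries spanned 5.25 to 14.7 and 6.25 to 18.3 CPM. All pairs of groups overlapped. Its log2 fold change was 0.15 in females (interval -0.77 to 1.07) and 0.46 in males (interval -0.47 to 1.38), with adjusted p of 0.856 and 0.537.

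Igfbp2 fell in males. Its normal diet libraries had 264.2, 173.7, 154.6 and 219.1 CPM and its high fat diet libraries 131.5, 78.1, 89.5 and 76.2 CPM, so the highest value on the high fat diet lay below the lowest on the normal diet. The log2 fold change was -1.11 ± 0.24 (SE; adjusted p = 0.00679), a 2.16-fold fall, and it stayed called in all 16 alternative fits. The hepatocyte sum given above separated the same males, with 3 of its 7 genes called lower and 0 higher. Its largest member Alb had 62159 to 69389 against 37263 to 59063 CPM, whereas Serpina1c had 6001 to 7116 against 6994 to 7883. So did the stellate cell and fibroblast sum (242.6 to 304.2 against 327.4 to 454.6 CPM, 0 called). The sinusoidal endothelial sum did too (116.1 to 135.4 against 136.9 to 155.8 CPM, 0 called). The acinar sum also did (0.152 to 0.381 against 0.405 to 23.2 CPM, 1 marker called higher). No marker of these lists was at 0 in all libraries. These sums are unscaled, and the TMM factors were 0.926 to 0.953 on the normal and 0.991 to 1.02 on the high fat diet. Divided by these factors, the endothelial and acinar sums overlap between the diets, and the hepatocyte and stellate sums still do not. The part of these cells in the changes in males was not tested. Of the 7 hepatocyte genes, 3 were also called lower in females and 0 higher, though their sum overlapped between the diets there. The part of hepatocytes in the changes in females was not tested either. In females the libraries had 231.8, 278.5, 194 and 246 CPM on the normal diet and 216.2, 141.7, 114.2 and 97.6 CPM on the high fat diet. There 3 of 4 high fat diet libraries were below the normal diet group and replicate 1 was inside it. The change on the log2 scale of -0.74 (interval -1.24 to -0.24) had an adjusted p of 0.0531. Without female high fat diet replicate 1 it was -1.01, with an adjusted p of 0.00971. Group means ordered as females and then males on the normal diet (237.5 ± 35 and 202.9 ± 49 CPM; SD, n = 4), then females and males on the high fat diet (142.4 ± 52.4 and 93.8 ± 25.8). Within each diet the sexes overlapped.

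Lect2 rose in males, from 86.9, 38.5, 59.8 and 55.6 CPM on the normal diet to 86.6, 128.6, 121 and 97.5 CPM on the high fat diet. Replicate 1 of each group, at almost the same value, made the groups overlap. The log2 fold change was 0.85 ± 0.21 (SE; adjusted p = 0.0139), about 1.8-fold, and Lect2 stayed called in all 16 alternative fits, with an adjusted p of 0.0428 when replicates 2 and 3 were averaged. Females had 176.6, 143.9, 121.1 and 136.5 CPM on the normal diet and 119.4, 160.4, 173.9 and 187.6 CPM on the high fat diet. Their diets overlapped, with a log2 fold change of 0.15 (interval -0.28 to 0.58, adjusted p = 0.679).

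Angptl6 was low in all groups and showed no called diet change. Females had 5.42 to 6.96 CPM on the normal diet and 4.04 to 6.06 on the high fat diet. Males had 2.68 to 4.86 and 3.45 to 5.77 CPM. The log2 fold changes were -0.17 in females (interval -0.59 to 0.26) and 0.32 in males (interval -0.11 to 0.76). In females the sign depended on the scaling, since it was 0.054 on log2(TPM + 1).

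The fetuins were the most abundant members, and neither was called for diet in the main test. Fetub had 507.1, 479.3, 470.9 and 502.5 CPM in females on the normal diet and 405.2, 427.5, 405.8 and 343.1 CPM on the high fat diet. These groups did not overlap, which 18.3% of all tested genes shared in this comparison. Its log2 fold change of -0.31 (interval -0.58 to -0.04) had an adjusted p of 0.131. In males Fetub had 495 to 576.7 CPM on the normal diet, and 390, 392.5 and 426.3 CPM in high fat diet replicates 2, 3 and 4 against 602.9 in replicate 1. The log2 fold change was -0.24 (adjusted p = 0.244), and -0.42 without high fat diet replicate 1 (adjusted p = 0.0143). Ahsg had log2 fold changes of -0.17 in females (interval -0.43 to 0.1, adjusted p = 0.414) and -0.23 in males (interval -0.49 to 0.03, adjusted p = 0.244). In females its sign turned on log2(TPM + 1), where it was 0.075. All tested genes had a median change of 0.15 on that scale, against 0.0019 by TMM.

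**Figure D3:**
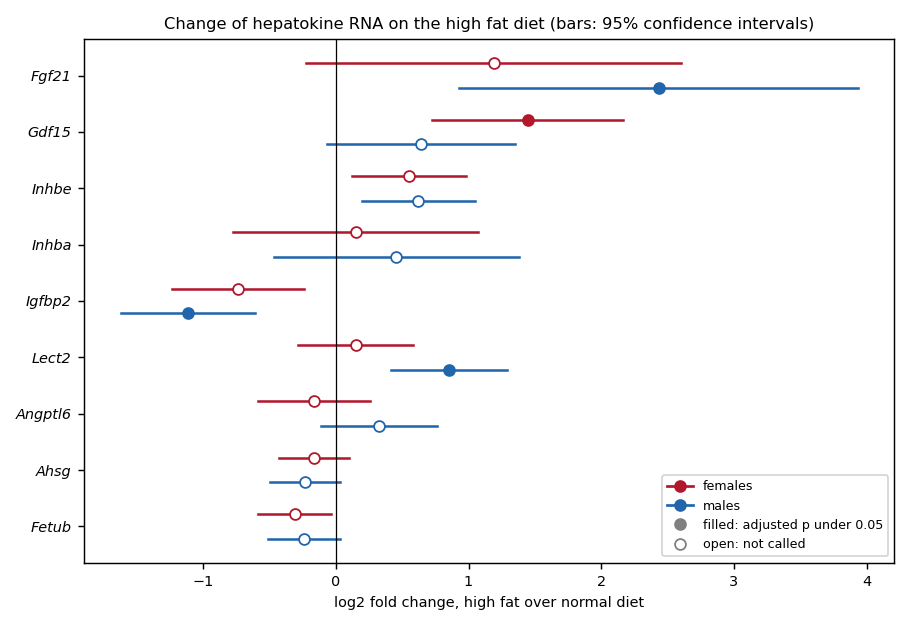
Log2 fold change of each gene on the high fat diet relative to the normal diet in females and males, with 95% confidence intervals from the edgeR fit; filled points have an adjusted p under 0.05. Gdf15 is filled in females (1.45) and Fgf21 (2.43), Lect2 (0.85) and Igfbp2 (-1.11) in males.

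In all, 1 of the 9 genes was called in females (1 higher, 0 lower), where 11.5% of all tested genes were called (5.74% higher, 5.76% lower). In males 3 of 9 were called (2 higher, 1 lower), where 11.4% of all genes were (6.03% higher, 5.36% lower). The diets did not overlap for 2 of 9 genes in each sex, against 18.3% of all genes in females and 18.5% in males. Of all genes in females 848 were called higher and 852 lower, but 2644 and 282 by limma on log2(TPM + 1). The median log2 fold change of the 9 genes was 0.15 in females and 0.46 in males, against 0.0019 and 0.01 over all tested genes. That the called members differ between females and males does not show that the sexes responded differently. The interaction of diet and sex (change in females minus change in males) was called for 0 of the 9 by edgeR, where 0.677% of all genes were called (0.264% higher, 0.413% lower), and for 0 by DESeq2. At an unadjusted p under 0.05 it was met by 1 member, Lect2 (-0.7 ± 0.29, SE; adjusted p = 0.315). The interaction of Fgf21 was -1.24 with an interval from -3.28 to 0.8, and that of Gdf15 0.8 with an interval from -0.21 to 1.81. These intervals span both no difference and differences of more than 2-fold. For Inhbe the interaction was -0.07, between -0.68 and 0.53.

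Lect2 showed the largest called difference between the sexes. On the normal diet all 4 female libraries lay above all 4 male ones, 121.1 to 176.6 against 38.5 to 86.9 CPM. The fitted log2 fold change, females over males, was 1.26 ± 0.21 (SE; adjusted p = 0.000724), about 2.4-fold, and it was called in all 16 alternative fits. On the high fat diet the sexes overlapped, and the log2 difference of 0.56 (interval 0.13 to 1) had an adjusted p of 0.061. That value crossed the threshold in other fits: the adjusted p was 0.0294 by DESeq2, 0.0109 and 0.0114 by limma on the TPM scales, 0.0407 with only the 2 groups in the fit and 0.0396 without female high fat diet replicate 1 (log2 difference 0.68). Averaging male replicates 2 and 3 gave 0.66 (adjusted p = 0.056). For this contrast all tested genes had a median log2 difference of 0.1 and 0.15 on the TPM scales, against -0.01 by TMM. On the normal diet the hepatocyte, stellate and endothelial marker sums given above were also higher in all female than in all male libraries, as was the T and B cell sum (2.08 to 3.23 against 0.644 to 1.75 CPM). The hepatocyte sum followed Alb (83988 to 91674 against 62159 to 69389 CPM). Serpina1c of the same list was lower in all females (4714 to 5204 against 6001 to 7116 CPM), and Apoa1, Ttr, Hnf4a, Cps1 and Pck1 overlapped. On the high fat diet the hepatocyte, Kupffer cell, endothelial and T and B cell sums were higher in all females, the last with 3.27 to 7.45 against 1.25 to 2.78 CPM, and the acinar sum was lower (0.118 to 0.309 against 0.405 to 23.2 CPM). Of the hepatocyte genes, Alb and Ttr were higher in all females on that diet, and Serpina1c and Hnf4a were lower in all. The mitochondrial share of counts on that diet was 4.59% to 5.5% in females and 6.13% to 8.42% in males. The sums are of the unscaled library total, and the TMM factors on that diet were 1.05 to 1.13 in females and 0.991 to 1.02 in males. Divided by these factors, the endothelial sums of the sexes overlap on the high fat diet, so that separation depends on the scale. The part of the marker sums and of the mitochondrial share in the sex differences was not tested.

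Angptl6 was also higher in females on the normal diet, with no overlap between 5.42 to 6.96 and 2.68 to 4.86 CPM. This 1.77-fold difference (log2 fold change 0.83 ± 0.21, SE; adjusted p = 0.0116) was called in all 16 alternative fits. On the high fat diet it was 0.34 (interval -0.09 to 0.77, adjusted p = 0.25), and limma on log2(TPM + 1) gave an adjusted p of 0.0384. All tested genes were shifted toward females on that scale, as given above. In the GENCODE M21 annotation an exon of Angptl6 overlaps A230050P20Rik on the other strand, and no source used here says whether reads were counted by strand, which leaves the level of Angptl6 uncertain. A230050P20Rik was lower in females on the normal diet, 5.03 ± 1.04 against 7.98 ± 1.38 CPM (SD, n = 4), with a log2 fold change of -0.67 ± 0.2 (SE, adjusted p = 0.0285). Whether shared reads have a part in the difference of Angptl6 was not tested.

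Ahsg was higher in females on both diets, by less. On the normal diet females had 6383, 7026, 6127 and 7701 CPM and males 5165, 5763, 5147 and 4779 CPM, with no overlap. The log2 fold change was 0.39 ± 0.13 (SE; adjusted p = 0.045), a 1.31-fold difference. This call was narrow: it was kept in 2 of 8 fits that left out a library. Without female normal diet replicates 1, 2 and 4 the adjusted p was 0.0616, 0.104 and 0.118, and without male normal diet replicates 1, 3 and 4 it was 0.0696, 0.107 and 0.123. On the high fat diet females had 6441, 6390, 6050 and 5366 CPM and males 5370, 3895, 4067 and 4438 CPM, where only the lowest female and the highest male overlapped. The change on the log2 scale was 0.45 ± 0.13 (SE; adjusted p = 0.018). It was called in 14 of 16 alternative fits, and lost with only the 2 groups in the fit (0.0576) and without male high fat diet replicate 2 (0.0558). Ahsg overlaps the antisense gene Gm30505, which had 2.04 to 3.11 CPM as group means.

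By edgeR, 3 of 9 genes were called on the normal diet, all higher in females, where 15.7% of all genes were called (7.03% higher, 8.68% lower). On the high fat diet edgeR called 1 of 9, higher in females, where 20.4% of all genes were called (8.84% higher, 11.6% lower). The sexes did not overlap for 3 of 9 genes on the normal diet and 0 of 9 on the high fat diet, against 22% and 22.7% of all genes. DESeq2 called 3 on the high fat diet (Ahsg, Igfbp2 and Lect2), and limma on either TPM scale called 4, these and Angptl6. Of all genes on that diet, limma on log2(TPM + 1) called 2957 higher in females and 753 lower, against 1306 and 1716 by edgeR. The log2 difference of Igfbp2 was 0.6 on the high fat diet (interval 0.1 to 1.1, edgeR adjusted p = 0.0808; 0.038 by DESeq2) and 0.23 on the normal diet (interval -0.27 to 0.73). Fetub, encoded next to Ahsg, had log2 differences of -0.13 and -0.2 on the 2 diets, with adjusted p of 0.547 and 0.298.

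**Figure D4:**
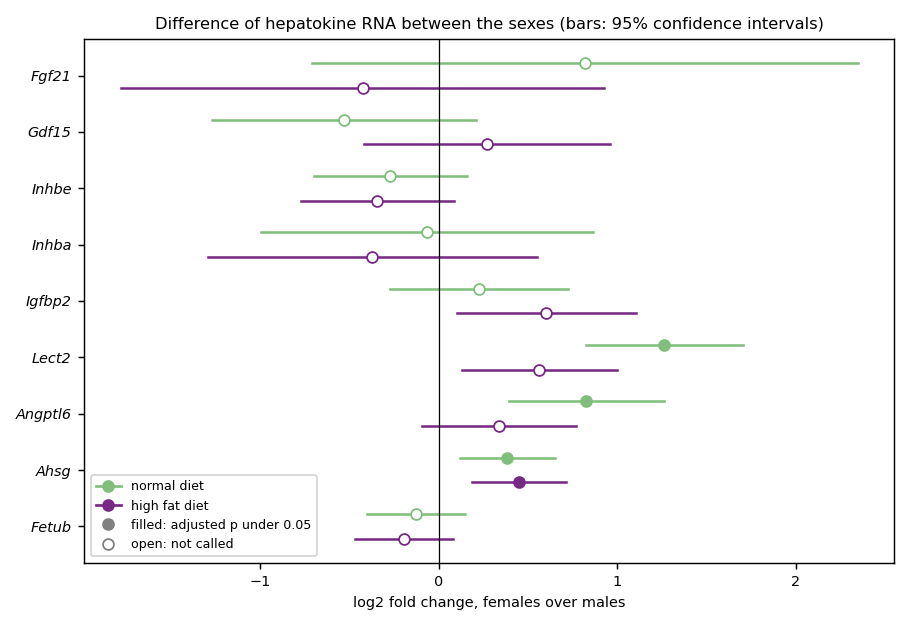
Log2 fold change of each gene, females over males, on each diet, with 95% confidence intervals from the edgeR fit; filled points have an adjusted p under 0.05. Lect2, Angptl6 and Ahsg are filled on the normal diet (1.26, 0.83 and 0.39), and Ahsg alone on the high fat diet (0.45).

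The calls differed in how firmly they stood. Across the 16 alternative fits of its contrast, Gdf15 in females had an adjusted p from 0.000887 to 0.0338 and Igfbp2 in males from 6.89e-05 to 0.0292. For Lect2 in males the range was 0.00146 to 0.045, and for Lect2 between the sexes on the normal diet 1.26e-07 to 0.00423. Fgf21 in males ranged from 0.00733 to 0.109, with the threshold passed in 5 of 16, and Ahsg on the normal diet from 0.00617 to 0.123, passed in 7 of 16.

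**Figure D5:**
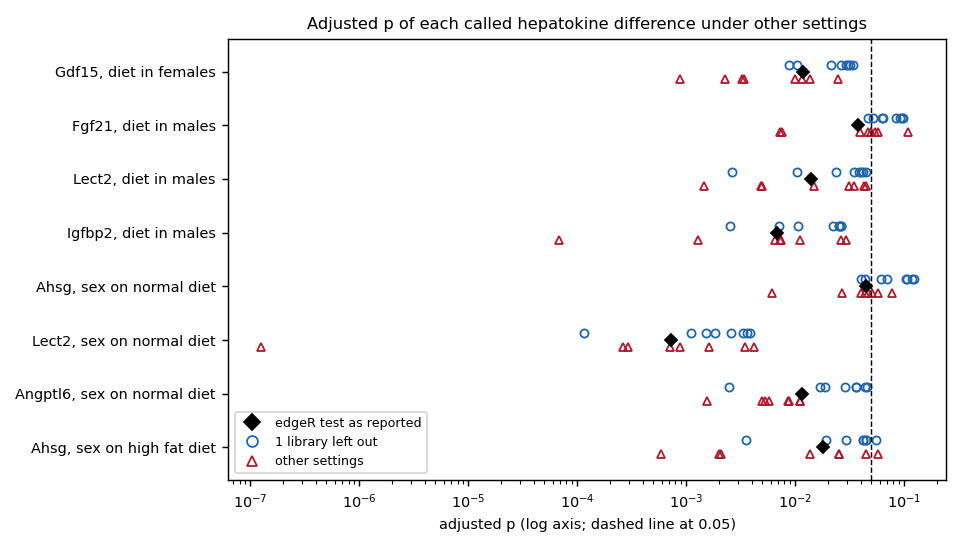
Adjusted p (log axis) of each of the 8 called differences in the edgeR test (diamonds), with 1 library left out (circles) and under other settings (triangles); the dashed line is at 0.05. All points of Gdf15, Igfbp2, Angptl6 and both Lect2 differences lie left of the line, and most circles of Fgf21 and of Ahsg on the normal diet lie right of it.

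The genes through which these hormones act or are controlled were examined from lists. Of 7 receptor genes for FGF21 and GDF15, 5 were tested and 0 were called for diet in either sex by edgeR. At an unadjusted p under 0.05 there was 1 in each sex, DESeq2 called 0 in females and 1 in males, and limma on log2(TPM + 1) called 2 in females and 0 in males. The share of all genes that edgeR called for diet was 11.5% in females and 11.4% in males. The GDF15 receptor gene Gfral had no count in any library, and its partner Ret at most 0.0271 CPM; both were named after their values were seen. The co-receptor gene Klb had 30.2 ± 4.38 CPM in females on the normal diet and 31.6 ± 7.37 on the high fat diet (SD, n = 4), with log2 fold changes of 0.06 in females and -0.5 in males (adjusted p = 0.902 and 0.227). Among sex contrasts, Fgfr1 was lower in females on the normal diet (log2 fold change -1.55 ± 0.34, SE; adjusted p = 0.00632) and 3 of the 5 were higher in females on the high fat diet. These were Fgfr2 (0.56 ± 0.14, adjusted p = 0.00917), Klb (0.77 ± 0.26, adjusted p = 0.0471) and Fgfr3 (0.39 ± 0.14, adjusted p = 0.0498). Between the sexes, 15.7% of all genes were called on the normal diet (8.68% lower in females) and 20.4% on the high fat diet (8.84% higher). Klb was lost without replicate 2, 3 or 4 of the females or 1 or 4 of the males on that diet (adjusted p up to 0.13), and Fgfr3 without any 1 of these 8 libraries (up to 0.112).

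In the activin list 13 of 16 genes were tested. In females 2 were called higher on the high fat diet and 0 lower. In males 1 was called higher and 1 lower. Of all tested genes, 11.5% were called in females and 11.4% in males, and no enrichment was tested. Smad3, a transducer of activin signals, had opposite changes. Female libraries had 6.38 ± 0.852 CPM on the normal and 10.7 ± 0.766 CPM on the high fat diet (SD, n = 4), a rise (log2 fold change 0.74 ± 0.16, SE, adjusted p = 0.00577). Male libraries had 13.8 ± 3.52 and 9.1 ± 0.711 CPM, a fall (-0.6 ± 0.15, adjusted p = 0.0173). The interaction was 1.34 ± 0.22 (adjusted p = 0.00612) and was called in all 23 alternative fits. The fall in males alone was lost without male normal diet replicate 2 (log2 fold change -0.46, adjusted p = 0.0627) or 3 (-0.52, 0.0615), without male high fat diet replicate 4 (-0.57, 0.0502), with only the 2 groups in the fit (0.0507) and on both TPM scales (0.116 and 0.127). Acvr1b, an activin type I receptor, rose in females by 0.52 ± 0.14 (adjusted p = 0.0199) and in males by 0.48 ± 0.13 (adjusted p = 0.0265). It was lost in 3 and 6 of the 8 fits that left out a library, with adjusted p up to 0.0841 and 0.0788. Acvr1c, the receptor through which activin E acts on fat tissue, had at most 0.271 CPM and was not tested. Inhbc, the neighbour of Inhbe on the chromosome, had 37 ± 6.08 and 32 ± 8.15 CPM in females and 45.7 ± 4.3 and 37 ± 9.11 CPM in males on the normal and the high fat diet. Acvr1c and Inhbc were named after their values were seen.

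Targets of the factors known to induce Fgf21 were called at shares that can be read against the 11.5% of all genes called in females and 11.4% in males, and no enrichment was tested. Of 18 PPAR alpha target genes, all tested, 3 were called in males, each higher on the high fat diet, with a median log2 fold change over the 18 of -0.05, against 0.01 over all genes. These 3 were Pdk4, a brake on glucose oxidation (2.67 ± 0.52, SE; adjusted p = 0.00548), the pantetheinase gene Vnn1 (1.17 ± 0.27, adjusted p = 0.0109) and the lipid droplet gene Plin2 (0.81 ± 0.21, adjusted p = 0.0161). Plin2 was lost without male normal diet replicate 1 (log2 fold change 0.69, adjusted p = 0.0566). In females 1 of the 18 was called, lower. The interaction of Pdk4 was -3.25 ± 0.69 (adjusted p = 0.057). Of 22 genes of the ATF4 stress response, 21 were tested, 3 were called in females (2 higher, 1 lower) and 2 in males (both higher). Cebpb fell in females by 1.15 on the log2 scale (SE 0.21, adjusted p = 0.00218). Atf5 rose in females by 1.21 ± 0.3 (adjusted p = 0.0181) and was lost without female normal diet replicate 1 or 2 (adjusted p up to 0.0572). It was also lost with no filter and with only the 2 groups in the fit. Atf3 rose in females by 1.22 ± 0.38 (adjusted p = 0.0475), and 6 of the 8 fits that left out a library lost it (up to 0.166). Vldlr rose in males by 2.12 ± 0.47 (adjusted p = 0.0097), and was lost on both TPM scales, with an adjusted p of up to 0.15. The other gene called in males was Atf3, which 5 of the 8 fits that left out a library lost (adjusted p up to 0.112). Atf4 itself had log2 fold changes of -0.06 in females and -0.11 in males (adjusted p = 0.825 and 0.662); it was named after its values were seen. Of the 11 tested ChREBP targets, 1 was called in females, the ATP citrate lyase gene Acly. In males edgeR called 0, with 5 at an unadjusted p under 0.05, 2 called by DESeq2 and 1 by limma on log2(TPM + 1). Acly had a log2 fold change of -0.59 ± 0.15 (adjusted p = 0.0165), and was lost without female normal diet replicate 3 (adjusted p = 0.0592) and on both TPM scales (up to 0.188).

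Among 20 other genes of secreted liver factors, 19 were tested, with 3 called in females (1 higher, 2 lower) and 1 higher in males. For this and the next lists, the share of all genes called for diet was 11.5% in females and 11.4% in males. Tsku, encoding the secreted protein tsukushi, fell in females from 129.7 ± 17.5 to 34.9 ± 13.1 CPM (SD, n = 4; log2 fold change -1.9 ± 0.3, SE, adjusted p = 0.00122). Angptl4, an inhibitor of lipoprotein lipase in the same family as Angptl6, fell from 136.4 ± 41.1 to 52.8 ± 19.2 CPM (-1.37 ± 0.28, adjusted p = 0.00578). Gpnmb, a glycoprotein made by lipid-laden macrophages as well, rose in males by 3.48 ± 0.78 (adjusted p = 0.00987), from 0.285 ± 0.149 to 3.33 ± 2.01 CPM. It rose in females by 3.47 ± 0.84 (adjusted p = 0.0156), a call lost without female normal diet replicate 1 or 4 (adjusted p up to 0.054) and in 3 other settings (up to 0.0931). Gpnmb is itself in the list of lipid-associated macrophage markers. The 5 genes of that list, all detected, summed to 46 to 61.1 CPM in males on the normal diet and 59.6 to 103.9 on the high fat diet. In males 3 of them were called higher and 1 lower, and in females 2 higher and 0 lower. Cd9 had 8.46 to 15.9 CPM in males on the normal diet and 4.32 to 8.28 on the high fat diet. Most of the sum was Spp1 (36.8 to 50.8 and 43.5 to 81.7 CPM), which is also in the cholangiocyte list. The part of these cells in the rise of Gpnmb was not tested. In the list of 11 genes of the insulin-like growth factor system, edgeR called 1 for diet in females, Igfals (0.37 ± 0.11, adjusted p = 0.0407), and 6 of the 8 fits that left out a library lost it (adjusted p up to 0.123). In males edgeR called 0 of the 11, with 3 at an unadjusted p under 0.05, and DESeq2 and limma on log2(TPM + 1) called 1 each. Among the 6 tested genes related to the fetuins, edgeR called 0 for diet, with 2 in females and 1 in males at an unadjusted p under 0.05, and 1 and 0 called by DESeq2. Among the 3 receptor genes of LECT2 edgeR and DESeq2 called 0, with 0 and 1 at an unadjusted p under 0.05. The LECT2 receptor gene Met was lower in females than in males on the high fat diet (-0.77 ± 0.16, adjusted p = 0.0028).

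Likeness between genes was described by Pearson's r of log2 CPM across the 16 libraries, which share their groups and depth, among 10642 tested genes. Among members, Lect2 and Angptl6 were most alike (r = 0.78), followed by Fgf21 and Inhbe (0.751) and Ahsg and Igfbp2 (0.699). After the group means were removed, these values were 0.444, 0.635 and 0.539. The neighbours Ahsg and Fetub had an r of 0.244 across libraries and 0.813 within groups. Outside the members, Fgf21 was most like Vps45 (0.896) and Plin2 (0.839), which encodes a coat protein of lipid droplets. Igfbp2 was most like Cct7 (0.947) and Cct5 (0.934), both subunits of the chaperonin that folds actin and tubulin. Lect2 was most like the aldo-keto reductase gene Akr1c20 (0.977) and Gypc (0.95). Fetub was closest to the splicing genes Hnrnph1 (0.945) and Clk4 (0.932), and Ahsg to the prothrombin gene F2 (0.905) and Lcat (0.882), which encodes a plasma enzyme that esterifies cholesterol. For the remaining members the closest genes were St6galnac6 and Id2 for Gdf15 (both 0.838), Ppip5k1 and 1300002E11Rik for Inhbe (0.852 and 0.847), Ccnh and Nudt2 for Angptl6 (0.901 and 0.899) and Slc17a3 and B4galt1 for Inhba (0.808 and 0.806). With the group means removed, the values for outside genes ran from 0.587 (Gdf15 and St6galnac6) to 0.953 (Lect2 and Akr1c20). They were lower than across libraries for all members but Inhba. Each outside gene was picked as the closest of the 10642, which favours high values.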

How the data were processed

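Liver poly(A) RNA of 16 libraries was sequenced on a NovaSeq instrument after NEBNext Ultra preparation, per the labels' protocols, all in the batch labelled 1. The deposited tables hold RSEM expected counts and TPM, per the file names; STAR, RSEM and GRCm39 are named in the submitters' processing notes, and their roles, versions, annotation and strand setting are not given in the sources used here. RSEM divides reads that fit several genes between them, and 4.89% of the deposited expected counts were not whole. Symbols came from GENCODE M21 identifiers (51487 of 78317 genes, 98.97% of counts). That annotation and the RefSeq start sequences are of an older build and served for names, overlaps and sequences only; all 9 genes matched a RefSeq start (12 windows).

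Counts were rounded, filtered with filterByExpr, TMM-scaled and fitted with edgeR 4.0.16 (R 4.3.3; robust quasi-likelihood, 1 mean per group, 16 libraries). Tests were two-sided. A standard error is the log2 fold change over the square root of F, and intervals are at 95%. The fit was tested on data simulated for diet in females. It called 65% of 100 genes changed by 1 on the log2 scale and 88% of 100 changed by 2. Of its calls, 3.16% were false. Replicates are libraries; the labels do not say that each is a separate animal, so p-values measure the spread between these libraries.

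Alternatives were the replicate block, DESeq2 1.42.0, DESeq2 size factors, no filter, limma 3.58.1 on log2(TPM + 1) and log2(TPM + 0.1), only the 2 groups compared, each library left out, and male high fat diet replicates 2 and 3 averaged. Named genes were all 9 members, at most 4 called genes per list and contrast with the smallest p, and the 2 genes most like each member among genes whose mean log2 CPM (prior count 2) reached 1. The members and lists were chosen with earlier results of these data known. Marker lists of 9 further cell types gave the following highest sums in any library, in unscaled CPM. Cholangiocyte markers reached 91.4, sinusoidal endothelial markers 213.2, stellate and fibroblast markers 454.6, red blood cell markers 529.7, T and B cell markers 7.45, neutrophil markers 4.38, adipocyte markers 10.9, pancreatic acinar markers 23.2 and lipid-associated macrophage markers 108.6.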

Additional observations from a re-analysis of the deposited data

Results flagged for a closer look

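Within groups of 4, the library farthest from its neighbours was checked for each of the 9 genes by the gap to the nearest library over the group's range, against Dixon's 95% critical value for 4 samples. Of 36 groups checked, 2 exceeded it, and chance gives about 1 in 20. Fetub in male high fat diet replicate 1 had 602.9 CPM, against 426.3 for the next library and 390 for the lowest. Inhba in male normal diet replicate 3 had 14.7 CPM, against 6.14 for the next library and 5.25 for the lowest. Smad3 differed in its diet change between the sexes by an interaction of 1.34 on the log2 scale (edgeR, adjusted p = 0.00612), with a rise in females and a fall in males.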

How the results depend on the processing

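The replicate numbers do not pair the libraries: over 24 same-numbered pairs the correlation of deviations from group means ran from -0.159 to 0.18, and 5 of 16 libraries correlated best with their own number. With the replicate block, 2 members were called for diet in females and 2 between the sexes on the high fat diet, against 1 and 1. DESeq2 gave 2 and 3, and limma gave 2 and 4 on log2(TPM + 1) and on log2(TPM + 0.1). With 1 library left out, the members called numbered 1 to 2 for diet in females, 2 to 4 for diet in males, and, between the sexes, 2 to 3 on chow and 0 to 2 on the high fat diet. The edgeR count of 0 arose without male high fat diet replicate 2, where 4 members had an unadjusted p under 0.05. The interaction stayed at 0 members in all fits. Of all genes, DESeq2 called 341 for the interaction against 100, limma 2926 and 2763 for diet in females against 1700, and the fit of only the 2 groups 1958 between the sexes on the high fat diet against 3022. With 1 library left out, these ranged from 51 to 176 for the interaction, 947 to 1647 for diet in females, 1113 to 1912 in males, 1325 to 2488 between the sexes on the normal diet and 1974 to 3019 on the high fat diet. The fit that averaged replicates 2 and 3 of the males on the high fat diet called 58 for the interaction.

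All reversals concern members without a call. On log2(TPM + 1) and log2(TPM + 0.1) the log2 fold changes were 0.075 and 0.075 for Ahsg and 0.054 and 0.062 for Angptl6 in females, 0.087 and 0.087 for the interaction of Fetub, 0.069 and 0.082 for that of Inhbe, and 0.0036 and 0.051 for Inhba between the sexes on the normal diet. With 1 library left out, the interaction ranged from -0.22 to 0.075 for Inhbe (positive without female normal diet replicate 3, replicate 3 or 4 of the females on the high fat diet, replicate 2 of the males on chow, or replicate 1 or 4 of the males on the high fat diet), from -0.13 to 0.12 for Fetub (positive without male high fat diet replicate 1) and from -0.79 to 0.070 for Inhba (positive without male high fat diet replicate 4). Inhba ranged from -0.13 to 0.38 for diet in females (negative without high fat diet replicate 2), from -0.21 to 0.42 between the sexes on the normal diet (positive without replicate 3 of either sex) and, on the high fat diet, from -0.65 to 0.0045 (positive without male replicate 4). On the high fat diet Fgf21 ranged from -1.35 to 0.15 and Fetub from -0.26 to 0.0028 between the sexes, both positive without male replicate 1. The cause was not tested. Of the other comparisons of members, 712 kept their side of the threshold, 25 gained it and 22 lost it.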
